A study of Homo sapiens with 8 samples.

Results

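The 10 protein-coding genes described here were measured in 8 RNA-seq libraries: NEUROG3, TNNT3, GDPD3, LIMS2, KISS1R, UPK1B, F10, C4B, B3GALT5 and RBM47. They are 10 of the 60652 gene rows counted, and 10 of the 16606 that had enough reads to be tested. They were chosen by their rise in CPM (a gene's reads scaled to the size of the library) in dCasMINI-VPR sgTet over dCasMINI-VPR sgNT, so those values describe the choice and were not tested here. All 10 were among the tested genes, but NEUROG3, TNNT3 and C4B passed the filter on low counts only through the sgTet libraries. Near-silent describes 8 members in sgNT, which lay under 1 CPM in both of its libraries, and 6 in crNT, the other non-targeting group, where F10 and B3GALT5 reached 1.18 and 1.08 CPM in replicate 2. LIMS2, at 1.89 and 1.93 CPM in sgNT, and RBM47, at 12.6 and 12.9 CPM, did not meet that description.

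The libraries came from HEK293T, a human embryonic kidney line, here carrying TRE3G-GFP, a green fluorescent protein reporter behind a promoter with tet operator sites. Cells grew in DMEM with 10% FBS, received activator and guide plasmids, and were sorted for mCherry and BFP 2 days after transfection. The 4 groups of 2 libraries were dCasMINI-VPR with sgTet, dCasMINI-VPR with the non-targeting sgNT, dCas12a-VPR with crTet and dCas12a-VPR with the non-targeting crNT. All groups therefore carry the reporter, an activator and a guide, and the values describe transient expression in 1 sorted cell line. The labels do not state the guide sequences, or whether the 2 replicates of a group were separate transfections, so p-values measure only the spread between these libraries, which may be technical.

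VPR joins the activation domains VP64, p65 and Rta, which recruit the transcription machinery when a catalytically dead Cas protein brings them to a promoter. dCasMINI is a miniature effector of the Cas12f family, much smaller than Cas12a. Both families need a T-rich motif beside the DNA that the guide pairs with. The members are known from other cells than kidney lines: endocrine progenitors of the pancreas and gut (NEUROG3), fast skeletal muscle (TNNT3), bladder urothelium (UPK1B), liver (F10 and C4B, whose products circulate in plasma), neurons of the reproductive axis (KISS1R) and digestive epithelium (B3GALT5 and RBM47), while LIMS2 and GDPD3 are not tied here to 1 tissue.

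The members lie on 10 different chromosomes, with hg38 coordinates from GENCODE release 29. NEUROG3 (ENSG00000122859.5) is at chr10:69571698-69573238 on the minus strand, TNNT3 (ENSG00000130595.19) at chr11:1919562-1938706 on the plus strand and GDPD3 (ENSG00000102886.15) at chr16:30104810-30113856 on the minus strand. LIMS2 (ENSG00000072163.20) spans chr2:127638381-127681786 on the minus strand, KISS1R (ENSG00000116014.10) chr19:917287-921015 on the plus strand and UPK1B (ENSG00000114638.8) chr3:119173517-119205153 on the plus strand. F10 (ENSG00000126218.12) lies at chr13:113122814-113149529, C4B (ENSG00000224389.9) at chr6:32014795-32035418 and B3GALT5 (ENSG00000183778.17) at chr21:39556442-39673137, all on the plus strand. RBM47 (ENSG00000163694.15) covers chr4:40423267-40630875 on the minus strand.

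RefSeq promoter windows of 300 bases (250 before and 50 after a transcript start, GRCh38.p14) were matched for 6 members: NEUROG3, UPK1B, F10, LIMS2, RBM47 and B3GALT5. These gave 13 windows, because 3 of the genes have more than 1 start. B3GALT5 has 2, and the one printed overlaps the 5′ end of its antisense partner. TNNT3, GDPD3, KISS1R and C4B were not matched. The 4 windows printed belong to the member with the widest gap between sgTet and sgNT (NEUROG3), a member called with dCas12a-VPR (UPK1B), and 2 members with an antisense partner that was called (F10 and B3GALT5). Each reads 5′ to 3′ on the gene's strand, and capitals mark TTTA or TTTG, the short T-rich motif, or its reverse complement TAAA or CAAA. The windows are NEUROG3 at chr10:69573373-69573672 (minus), UPK1B at chr3:119173348-119173647 (plus), F10 at chr13:113122549-113122848 (plus) and B3GALT5 at chr21:39612690-39612989 (plus).
NEUROG3: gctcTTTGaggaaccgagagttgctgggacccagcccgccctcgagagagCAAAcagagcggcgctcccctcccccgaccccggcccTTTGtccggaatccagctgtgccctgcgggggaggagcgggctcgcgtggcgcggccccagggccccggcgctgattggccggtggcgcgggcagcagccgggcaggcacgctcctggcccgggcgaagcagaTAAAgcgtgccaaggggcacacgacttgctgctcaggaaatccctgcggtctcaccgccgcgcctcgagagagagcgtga
UPK1B: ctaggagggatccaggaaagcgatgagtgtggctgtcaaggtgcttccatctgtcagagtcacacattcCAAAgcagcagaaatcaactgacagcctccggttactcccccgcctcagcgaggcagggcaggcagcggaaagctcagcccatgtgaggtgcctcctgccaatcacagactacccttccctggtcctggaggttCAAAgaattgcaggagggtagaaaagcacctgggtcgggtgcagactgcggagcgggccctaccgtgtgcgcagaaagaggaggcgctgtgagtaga
F10: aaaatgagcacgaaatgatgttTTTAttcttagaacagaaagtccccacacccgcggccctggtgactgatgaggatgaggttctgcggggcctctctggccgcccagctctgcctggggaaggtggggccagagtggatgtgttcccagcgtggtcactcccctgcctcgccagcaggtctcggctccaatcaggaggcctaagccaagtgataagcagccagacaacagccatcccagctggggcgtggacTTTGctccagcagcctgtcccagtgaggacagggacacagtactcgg
B3GALT5: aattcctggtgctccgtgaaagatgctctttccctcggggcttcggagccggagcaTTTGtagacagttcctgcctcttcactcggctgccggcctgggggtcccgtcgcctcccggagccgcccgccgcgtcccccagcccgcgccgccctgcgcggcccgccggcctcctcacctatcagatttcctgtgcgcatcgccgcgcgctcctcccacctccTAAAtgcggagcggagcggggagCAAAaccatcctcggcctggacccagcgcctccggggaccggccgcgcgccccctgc

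The 4 sequences differ in base composition. Guanine and cytosine made up 71.0% of the NEUROG3 window and 71.0% of the B3GALT5 window, with observed over expected CpG ratios of 0.82 and 0.96. The UPK1B window had 58.3% and a CpG ratio of 0.43, and the F10 window had 59.3% and 0.38. The T-rich motif was found 4 times in the NEUROG3 window, 2 times in UPK1B, 2 times in F10 and 3 times in B3GALT5. The other B3GALT5 window (chr21:39642146-39642445, not printed) differs from the printed one, with 38.7% guanine and cytosine, a CpG ratio of 0.29 and 8 matches of the T-rich motif.

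Each library held between 17474404 and 21081942 reads in genes, so that 3 reads equal 0.145 to 0.170 CPM (counting error only, since reads carry no molecular identifiers). EGFP, the reporter transcript, averaged 1006 CPM in sgTet against 3.82 CPM in sgNT, and 755 CPM in crTet against 2.71 CPM in crNT, so the reporter followed the guide labels. The share of unmapped reads was 14.4% and 12.7% in crNT and 8.32% to 9.62% elsewhere. The share of gene reads on mitochondrial transcripts was 4.57% and 3.49% in sgTet, against 3.09% and 3.33% in sgNT, and 3.90% and 4.03% in crTet, against 2.97% and 3.04% in crNT. The 2 replicates differed most in sgTet, with a chi-square per degree of freedom over genes of 12.5, beside 3.80 in sgNT, 6.47 in crTet and 3.12 in crNT. The part of these differences in the members' values was not tested. All 8 genes listed as HEK293T markers were detected. Of the markers of other cells, the blood list summed to 3.70 to 6.35 CPM over the 8 libraries with PTPRC and HBB at 0, and the endothelial list to 0.717 to 1.23 CPM with TIE1 at 0. The fibroblast list summed to 34.8 to 48.8 CPM with no gene at 0, and none of these 3 lists had a called gene in either comparison. Only 2 of 6 blood, 1 of 5 endothelial and 4 of 6 fibroblast genes were tested.

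**Figure D1:**
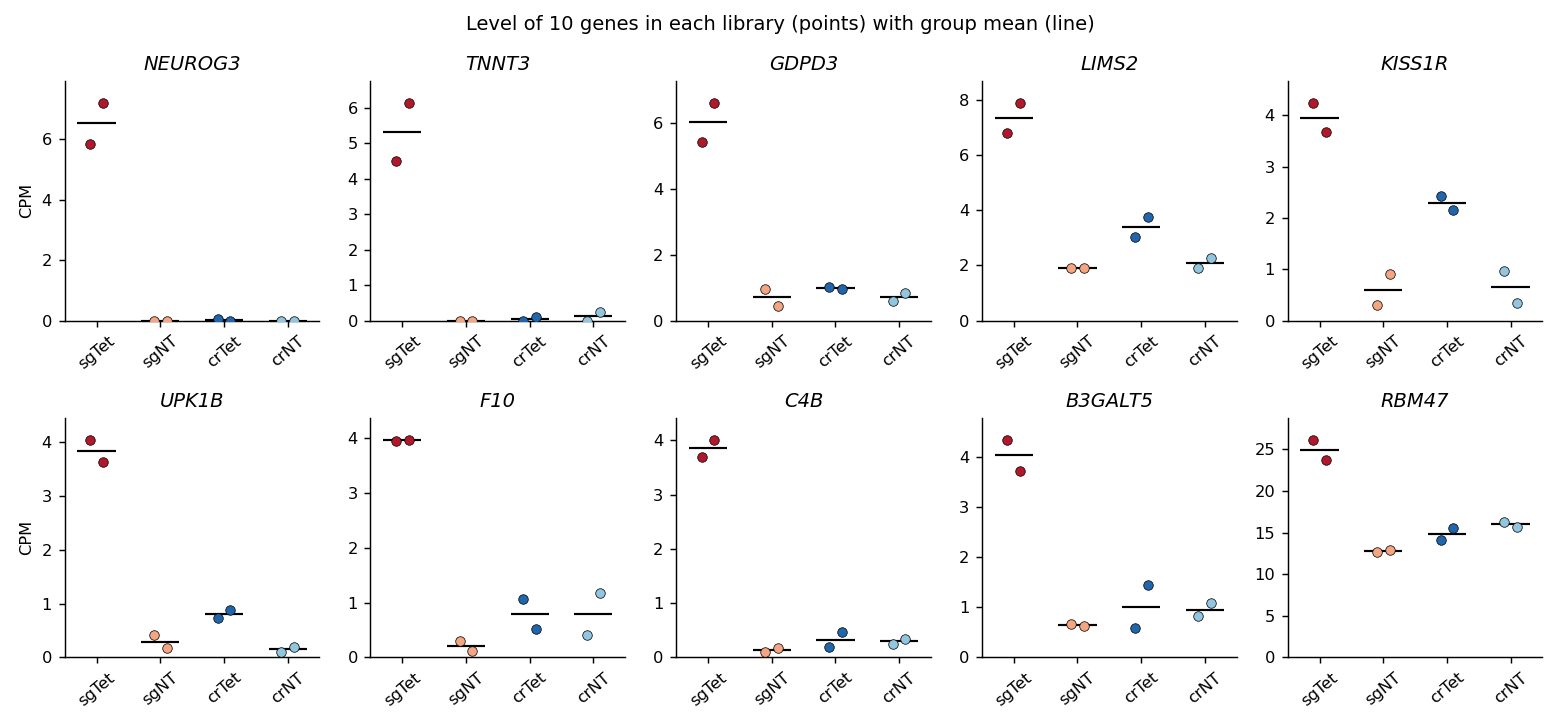
Level of each of the 10 genes in every library, in CPM on a linear axis that starts at 0. Points are the 2 libraries of a group and lines are group means. For each gene both sgTet points lie above all 6 points of the other groups.

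The regulators of other genes come first. NEUROG3, the basic helix-loop-helix transcription factor that starts endocrine differentiation in the pancreas, had 5.84 and 7.20 CPM in the sgTet libraries (117 and 149 reads) and no read in either sgNT library. Its mean of 6.52 ± 0.961 CPM (SD, n = 2) was at least 81.0-fold higher than in sgNT, against a floor of 3 reads over the 2 sgNT libraries. With dCas12a-VPR it had 1 and 0 reads in crTet and 0 in both crNT libraries. NEUROG3 was thus detected as more than a stray read in 1 group of 4. RBM47, an RNA-binding protein that acts as a cofactor of APOBEC1 in C-to-U editing of intestinal RNA, had 26.2 and 23.7 CPM in sgTet, against 12.6 and 12.9 CPM in sgNT. It had 14.1 and 15.6 CPM in crTet, against 16.3 and 15.7 CPM in crNT. The ratio of its mean CPM in sgTet to that in sgNT, 1.95, was the smallest of the 10.

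In these bulk libraries, more cells with a transcript and more transcript per cell cannot be told apart. TNNT3, the troponin T of fast skeletal muscle fibres, had 4.50 and 6.14 CPM in sgTet and no read in sgNT, a difference of at least 66.1-fold against the same floor. It had 0 and 2 reads in crTet, and 0 and 5 in crNT. LIMS2, a LIM-domain adaptor that binds integrin-linked kinase at cell adhesions, had 6.79 and 7.88 CPM in sgTet, against 1.89 and 1.93 CPM in sgNT, a ratio of 3.84. It had 3.02 and 3.77 CPM in crTet, against 1.89 and 2.26 CPM in crNT. For LIMS2 the crTet libraries lay between those of sgTet and those of both non-targeting groups.

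Both surface proteins showed a like order of groups. KISS1R, the G protein-coupled receptor for kisspeptin, had 4.25 and 3.67 CPM in sgTet, against 0.307 and 0.907 CPM in sgNT, a ratio of 6.53. It had 2.44 and 2.17 CPM in crTet, against 0.972 and 0.344 CPM in crNT. UPK1B, a tetraspanin of the plaques on the apical surface of the bladder, had 4.05 and 3.63 CPM in sgTet, against 0.409 and 0.170 CPM in sgNT, a ratio of 13.2. It had 0.731 and 0.877 CPM in crTet, against 0.102 and 0.197 CPM in crNT. In both genes all crTet libraries lay above all 4 non-targeting libraries and below both sgTet libraries.

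Both plasma protein genes were high in sgTet, and their crTet and crNT ranges overlapped. F10, which encodes coagulation factor X, had 3.95 and 3.96 CPM in sgTet, against 0.307 and 0.113 CPM in sgNT, a ratio of 18.8. It had 1.07 and 0.516 CPM in crTet, against 0.409 and 1.18 CPM in crNT. C4B, an isotype of complement component C4, had 3.70 and 4.01 CPM in sgTet, against 0.102 and 0.170 CPM in sgNT, a ratio of 28.3. It had 0.195 and 0.464 CPM in crTet, against 0.256 and 0.344 CPM in crNT, and the crNT range falls inside that of crTet. C4B has a near-identical copy, C4A, so the division of reads between them is uncertain.

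Among the enzymes, GDPD3, a phosphodiesterase of lysophospholipids, had 5.45 and 6.62 CPM in sgTet, against 0.972 and 0.453 CPM in sgNT, a ratio of 8.46. It had 1.02 and 0.980 CPM in crTet, against 0.614 and 0.836 CPM in crNT. B3GALT5, the galactosyltransferase that builds type 1 lacto-series chains, had 4.35 and 3.72 CPM in sgTet, against 0.665 and 0.623 CPM in sgNT, a ratio of 6.26. It had 0.585 and 1.44 CPM in crTet, against 0.819 and 1.08 CPM in crNT. GDPD3, LIMS2, F10, C4B, B3GALT5 and RBM47 overlap genes on the other strand. The forward and reverse count columns held nearly equal totals in each library, such as 11727006 and 11599878 reads in sgTet replicate 1, so strand does not show which of 2 overlapping genes a read came from. The unstranded column leaves out reads that fall on genes of both strands, so levels of such genes can be understated. For GDPD3 the forward and reverse columns summed to 505 reads in sgTet, whereas the unstranded column held 246.

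Leaving RBM47 aside, the sgTet means of the remaining genes ran from 3.84 to 7.34 CPM and their sgNT means from 0 to 1.91 CPM, not scaled to length. Over the 10 genes the median of the mean CPM was 4.68 in sgTet, 0.448 in sgNT, 0.903 in crTet and 0.692 in crNT. Scaled to the length of all annotated exons, the levels in sgTet ran from 0.282 RPKM for B3GALT5 to 4.74 RPKM for NEUROG3, which was above 56.5% of the tested genes with a length. RBM47 was the highest of the 10 per length in sgNT, crTet and crNT (1.5, 1.74 and 1.87 RPKM). In sgTet it had 2.92 RPKM, below NEUROG3 and GDPD3 (3.19 RPKM). In the order of group means, sgTet stood first for all 10 genes and its libraries did not overlap those of the next group. crTet stood next for 7 genes, and crNT for TNNT3, F10 and RBM47. For NEUROG3, C4B and B3GALT5 the crTet libraries overlapped those of the group below, as the crNT libraries did for TNNT3 and F10. For NEUROG3, TNNT3, GDPD3, LIMS2, KISS1R and UPK1B the last 2 groups overlapped. By the fitted rise in sgTet over sgNT, NEUROG3 and TNNT3 ranked 1 and 2 of the 16606 tested genes, C4B ranked 19, and RBM47 ranked lowest of the members at 415. NEUROG3 and TNNT3 had no sgNT read, so their places depend on the small prior count that the fit adds. The ranks describe the values that chose the members. In the whole table, 78 genes were called higher in sgTet than in sgNT (0.47%) and 54 lower (0.325%), and scaling by library size alone made these 68 and 80. Of 2162 tested genes under 1 CPM in both sgNT libraries, 28 were called higher (1.30%) and 0 lower by edgeR at an adjusted p of 0.05. That set was picked by its sgNT values and holds 8 of the members, so the count is not an independent background. Of 2268 tested genes under 1 CPM in both crNT libraries, 21 were called higher in crTet (0.926%) and 2 lower.

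Values with the second activator were not used by the rule that chose the genes. With dCas12a-VPR, 2 of the 10 genes rose in crTet relative to crNT, the receptor KISS1R and the tetraspanin UPK1B, and 0 fell. At an unadjusted p of 0.05, edgeR gave 3 higher and 0 lower, and DESeq2 gave an adjusted p for RBM47 alone, which it did not call. Across all tested genes 3.56% were called higher (592 genes) and 2.75% lower (457 genes), and scaling by library size alone gave 432 and 602. KISS1R averaged 2.30 ± 0.191 CPM in crTet, against 0.658 ± 0.444 CPM in crNT (SD, n = 2 each). Its log2 fold change was 1.80 ± 0.48 (SE; edgeR quasi-likelihood test with Benjamini-Hochberg adjustment over all genes, adjusted p = 0.0201). UPK1B averaged 0.804 ± 0.103 CPM in crTet, against 0.150 ± 0.0668 CPM in crNT, with a log2 fold change of 2.37 ± 0.69 (edgeR adjusted p = 0.0326). Both calls rest on few reads, 50 and 42 in crTet against 19 and 7 in crNT for KISS1R, and 15 and 17 in crTet against 2 and 4 in crNT for UPK1B. The KISS1R call was lost without crNT replicate 2, crTet replicate 1 or crTet replicate 2 (edgeR adjusted p = 0.282, 0.0937 and 0.0605) and with forward-strand counts (0.148). Its log2 fold change was 2.72 without crNT replicate 1 and 1.24 without crNT replicate 2. The UPK1B call was lost without crNT replicate 1 or 2 or crTet replicate 1 or 2 (edgeR adjusted p = 0.346, 0.111, 0.0694 and 0.141) and with forward-strand or reverse-strand counts (0.200 and 0.136).

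The other 8 genes were not called with dCas12a-VPR. LIMS2 had a log2 fold change of 0.70 (95% interval 0.09 to 1.31, edgeR adjusted p = 0.172) with both crTet libraries above both crNT libraries. GDPD3 had 0.46 (interval -0.48 to 1.40, adjusted p = 0.646 in edgeR), also without overlap of its libraries. The most precisely measured member was RBM47, at -0.11 with an interval of -0.40 to 0.18. Intervals were wide for the low genes, being -1.12 to 1.12 for F10, -1.32 to 1.56 for C4B and -0.90 to 1.07 for B3GALT5. C4B, with 4 and 9 reads in crTet against 5 and 7 in crNT, was tested only because of its sgTet reads. No fold is given for NEUROG3 and TNNT3, whose counts with dCas12a-VPR were at or near the 3-read floor.

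**Figure D2:**
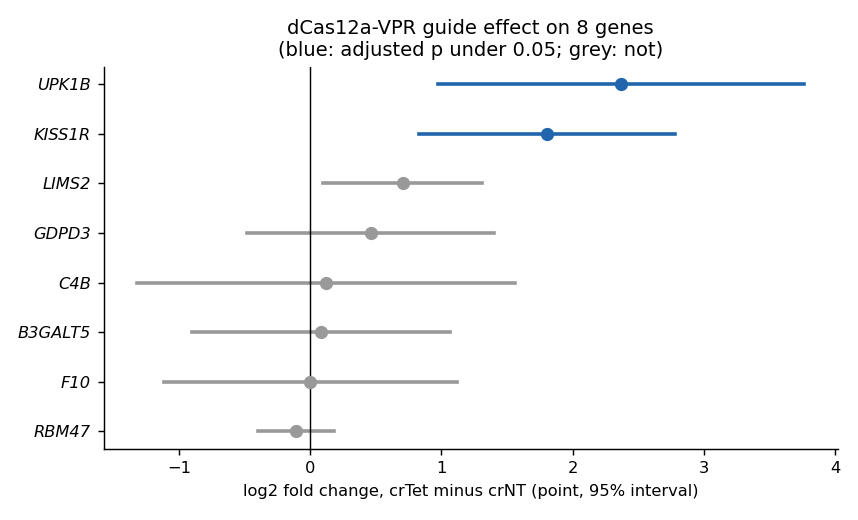
Log2 fold change of crTet over crNT for 8 members (points) with its 95% interval (lines), from the fit of all 8 libraries. NEUROG3 and TNNT3 are left out for want of reads, and C4B was tested only because of its sgTet reads. UPK1B at 2.37 and KISS1R at 1.80, in blue, were called, and the intervals of GDPD3, C4B, B3GALT5, F10 and RBM47 include 0.

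Genes beside the members were examined next, within 100 kb on either side. Of 119 annotated neighbours, 42 were tested. In sgTet over sgNT 3 of them were called higher and 0 lower, beside 0.47% and 0.325% of all genes, and in crTet over crNT none was called in either direction. At an unadjusted p of 0.05, edgeR gave 4 higher and 5 lower neighbours in sgTet and 3 higher and 0 lower in crTet, while DESeq2 called 2 higher in sgTet and none in the other directions (it gave no adjusted p for some neighbours in crTet). Each of the 3 shares sequence or position with a member, so none is an independent observation. B3GALT5-AS1, transcribed from the opposite strand inside B3GALT5 (chr21:39597147-39612821), averaged 4.28 CPM in sgTet, against 0.565 CPM in sgNT. Its 5′ end falls inside the B3GALT5 window printed above. ENSG00000283828.1, an antisense gene (chr13:113149432-113154002) that overlaps the 3′ end of F10, averaged 3.0 CPM in sgTet, against 0.423 CPM in sgNT. C4A, the paralog that ends 12.1 kb before C4B, had 60 and 99 reads in sgTet, against 0 and 1 in sgNT. It had 11 and 0 reads in crTet and 9 and 0 in crNT, so its reads were uneven between replicates. Like C4B, C4A passed the filter on low counts only through the sgTet libraries. The C4A call was lost without sgNT replicate 1 or 2 (edgeR adjusted p = 0.374 and 0.373) and in DESeq2 (adjusted p = 0.349). That of ENSG00000283828.1 was lost without sgNT replicate 1 or 2 or sgTet replicate 2 (edgeR adjusted p = 0.0886, 0.295 and 0.0989). With reverse-strand counts it was 0.0704, and that of B3GALT5-AS1 was 0.0589.

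No other tested neighbour was called. MAPK3, a kinase gene 249 bp from GDPD3, averaged 152 CPM in sgTet, against 160 CPM in sgNT (edgeR adjusted p = 0.742). F7, the coagulation factor VII gene 2133 bp from F10, had no read in the sgTet or sgNT libraries, and TNNI2, the fast troponin I gene 77.9 kb from TNNT3, had none in any library. GPR17, which lies within LIMS2 on the opposite strand, also had no read in sgTet or sgNT. MAPK3, F7, TNNI2 and GPR17 were chosen after their values were seen.

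**Figure D3:**
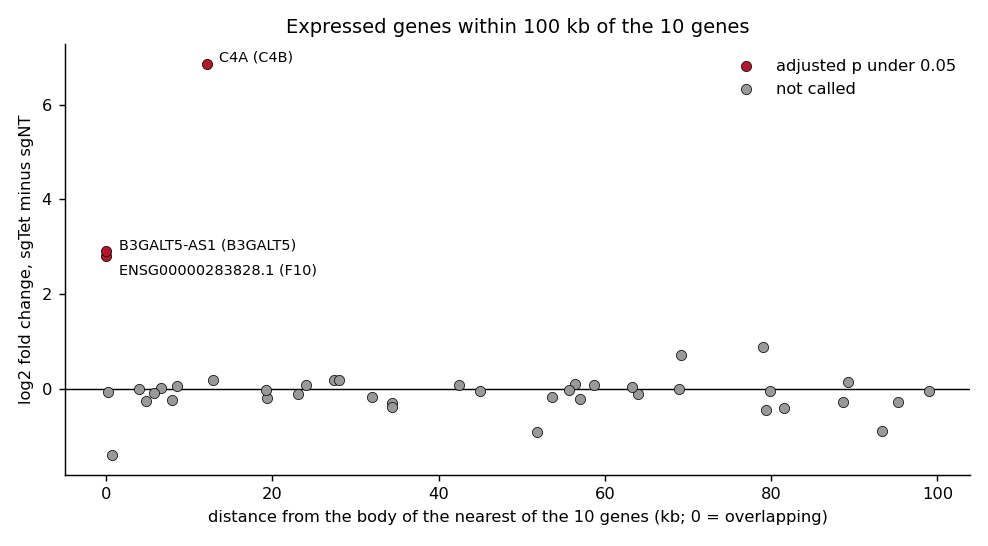
Log2 fold change of sgTet over sgNT for the 42 tested genes within 100 kb of a member, against distance from the member's body in kb. The 3 called genes, in red with the member they lie beside in brackets, are at 0 kb (overlapping) or at 12.1 kb, and the value of C4A rests on 1 read in sgNT.

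Genes that work with the members in their own tissues were listed in 12 sets, with 179 genes of which 178 were matched (MYLPF was not) and 98 tested. In sgTet over sgNT, 1 of the 98 was called higher (1.02%, beside 0.47% of all genes) and 0 lower, the 1 being C4A. C4A passed the filter on low counts only through the sgTet libraries, so this share is not an independent result. At an unadjusted p of 0.05, edgeR gave 8 higher and 6 lower, and DESeq2 called none. The median log2 fold change of the 98 genes was -0.04, against 0.00 over all tested genes. In the endocrine pancreas list 0 of 12 tested genes were called, and PAX4 and INS, the insulin gene, had no read in any library. In the skeletal muscle list 0 of 11 were called, and TNNT2, TNNI2, MYL1, MYF5 and MYF6 had no read. The urothelium list had 0 of 6 called with UPK3A, UPK3B and KRT20 at 0, and the coagulation list 0 of 8 with F9 and FGA at 0. APOBEC1, the deaminase that RBM47 assists in the intestine, had no read. The hepatocyte list, with APOB at 0, summed to at most 0.877 CPM and had no tested gene.

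With dCas12a-VPR, 5 of the 98 listed genes were called higher in crTet than in crNT (5.10%, beside 3.56%) and 3 lower (3.06%, beside 2.75%). NKX6-1, a homeobox factor of beta cells, averaged 23.7 CPM in crTet, against 14.7 CPM in crNT (log2 fold change 0.69 ± 0.14, edgeR adjusted p = 0.00256). The other 4 that rose were INSM1, an endocrine zinc-finger factor (0.53), TNNT1, the slow-fibre troponin T (0.34), PLCB3, a phospholipase (0.42), and B3GALT6, a galactosyltransferase (0.39, all log2 fold changes). The complement protease C1R (-0.63), the complement regulator CD46 (-0.28) and the integrin subunit ITGAV (-0.42) fell. Without crNT replicate 1 none of the 8 was called by edgeR (adjusted p 0.0834 to 0.55), and without crNT replicate 2 only NKX6-1 was. Leaving out crTet replicate 1, crTet replicate 2, sgNT replicate 1 or sgNT replicate 2 lost 5, 6, 4 and 4 of the 8 calls. Of the HEK293T markers, VIM, the vimentin gene, was called higher in sgTet (201 against 146 CPM in sgNT, log2 fold change 0.46) and in crTet (163 against 127 CPM in crNT, 0.35), and NEFM in crTet (22.7 against 14.4 CPM in crNT, 0.66), with edgeR adjusted p = 0.0028, 0.0112 and 0.00527. Each of the 3 calls was lost without 1 or more libraries of its comparison. For VIM these were sgNT replicate 1 or 2 or sgTet replicate 1 (adjusted p = 0.0656, 0.1 and 0.0735 in edgeR), and crNT replicate 1 or crTet replicate 2 (0.288 and 0.136). With forward-strand or reverse-strand counts the log2 fold change of VIM was 0.20 and 0.21 in sgTet (edgeR adjusted p = 0.271 and 0.231) and 0.23 and 0.21 in crTet (0.0664 and 0.0927), so neither call held. For NEFM they were crNT replicate 1 or 2 or crTet replicate 1 (edgeR adjusted p = 0.0719, 0.083 and 0.1). The part of these shifts in the members' values was not tested.

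**Figure D4:**
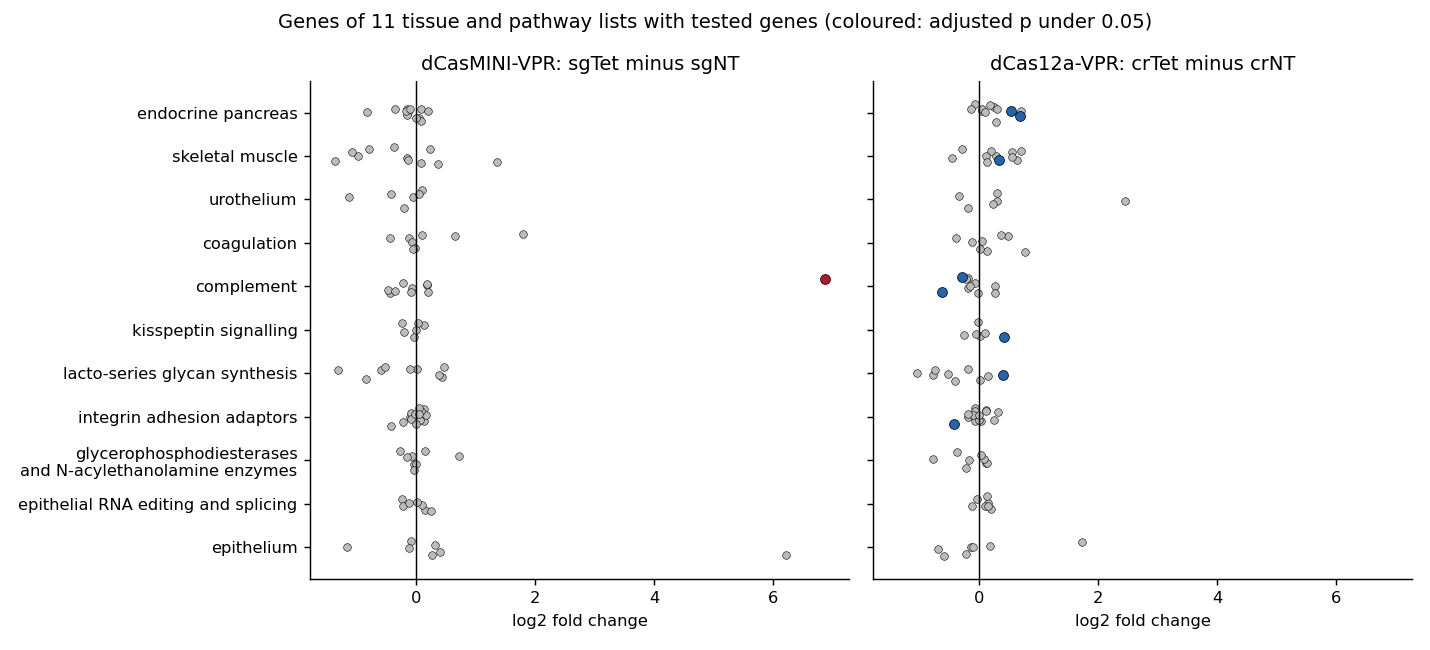
Log2 fold changes of the 98 tested genes of the tissue and pathway lists, by list (rows), in sgTet over sgNT (left) and crTet over crNT (right). Coloured points were called (adjusted p under 0.05): C4A on the left, and 5 higher and 3 lower genes on the right. The uncalled epithelium point beyond 6 on the left is KRT19, listed with 13 and 6 reads in sgTet and 0 in both sgNT libraries, so its place depends on the prior count.

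The genes whose levels over the 8 libraries most resembled the members' mean profile were found by Pearson's r of log2 CPM. The 8 libraries share the 4 groups, so r describes the likeness only. RASA4CP, a pseudogene, had r = 0.983 with 1.47 CPM in sgTet, against 0.562 CPM in sgNT. B3GALT5-AS1 and the pseudogene CCT8P1 followed, both at r = 0.961. GSTP1, a glutathione transferase, also had r = 0.961, at the much higher level of 503 CPM in sgTet, against 373 CPM in sgNT. LARS2, the mitochondrial leucyl-tRNA synthetase, had r = 0.960 with 126 CPM in sgTet, against 118 CPM in sgNT. RASA4CP, CCT8P1 and LARS2 were not called in sgTet over sgNT (edgeR adjusted p = 0.330, 0.520 and 0.678), whereas B3GALT5-AS1 and GSTP1 were. All were picked for likeness to a profile high in sgTet in these same libraries, so the calls are not independent results. The members' own r with their mean ran from 0.793 for KISS1R to 0.984 for C4B. Each member is part of that mean and all were chosen for the same rise, so high values were built in.

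Motifs were searched on both strands in the 13 member windows and in all 35116 RefSeq windows. Most of the 13 belong to LIMS2 and RBM47, the members that were not near-silent in sgNT. The T-rich motif TTTA or TTTG was found in 13 of the 13 and in 87.4% of all windows. TATAAA, which itself contains TAAA, was found in 3 of the 13 (11.5% of all), CCAAT in 5 (34.6%), GGGCGG in 7 (45.0%) and the E-box CANNTG in 10 (68.7%). The TEAD motif GGAATG was found in 4 (14%), TNAAGTG in 1 (10.2%) and TGANTCA in 0 (7.71%). Windows of 1 gene are not independent of each other, and a match describes letters in the window and not a bound site.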

How the data were processed

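Poly(A) RNA was sequenced from 8 libraries in 4 groups of 2. Per the submitters' processing notes, STAR and hg38 were used (the STAR release is not given in the sources used here). The authors deposited raw counts of reads per gene, 1 file per library, with 60652 gene rows, 3 count columns (unstranded, forward and reverse) and 4 totals that name no gene. The unstranded counts were used. The totals, which stayed out of library sizes and tests, included 8.32% to 14.4% unmapped reads. Symbols came from the files' Ensembl identifiers through the reference tables (42062 rows).

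Counts were fitted with edgeR 4.0.16 in R 4.3.3 (quasi-likelihood, TMM, low-count filter by group) in 1 model of all 8 libraries with 4 group means, testing 16606 genes. Tests were two-sided, and genes with a Benjamini-Hochberg adjusted p under 0.05 were called. CPM use TMM-adjusted library sizes, and RPKM divides them by exon length. The 10 members, the gene lists and the tests were chosen with earlier results of these data known. Besides the members and EGFP, the genes named are up to 4 called genes per list and comparison, called neighbours within 100 kb and the 5 genes most like the members' mean profile. Others, among them the genes listed at 0 reads and KRT19, were chosen after their values were seen. Libraries with the same replicate number were not treated as pairs in the main fit. In simulated data for crTet minus crNT over 16606 genes, 64.2% of changes of log2 size 1, 80.6% of size 2 and 97.0% of size 3 were recovered with 6 false calls. The changed genes were drawn at random from all tested genes. Recovery at read counts as low as those of most members was not measured. Alternatives changed scaling, filter, strand column, tool, libraries fitted and replicate block. DESeq2 was version 1.42.0.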

Additional observations from a re-analysis of the deposited data

Results flagged for a closer look

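The difference between the activators was itself tested for the 14 non-member genes run through the alternatives, and 1 was called. All 14 had been called in sgTet over sgNT or in crTet over crNT. That test reuses the same libraries, so the count is not an independent result. CD46, a regulator of complement, had a difference of 0.46 ± 0.12 (log2, SE) between its change in sgTet over sgNT (0.18) and its change in crTet over crNT (-0.28), with an edgeR adjusted p of 0.0498. Among all genes tested, 224 of 16606 were called for that difference. The value sits at the threshold. It kept its direction in 14 alternatives (0.38 to 0.55), but its call was lost in 11 of them, which include leaving out either library of sgNT, crTet or crNT, or sgTet replicate 1 (adjusted p = 0.0792 to 0.274 in edgeR). The fall of CD46 in crTet over crNT lost its call in 8 of 16 alternatives.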

How the results depend on the processing

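The rise of the 10 members in sgTet over sgNT kept its direction in all 16 alternatives. The members were chosen for that rise in these same libraries, so its direction is not independent support. Members called higher in crTet numbered 0 with forward-strand and 1 with reverse-strand counts, and 0 to 2 when each library was left out. DESeq2 gave no adjusted p for 9 of the members. Fitting only the 4 dCas12a-VPR libraries gave 963 genes higher and 822 lower in crTet. Genes lower in crTet were 242 with forward-strand and 255 with reverse-strand counts. Leaving out each library gave 98 to 1049 genes higher and 37 to 919 lower in crTet, and 32 to 714 higher and 15 to 761 lower in sgTet. Genes called in sgTet were 133 higher and 143 lower without the filter, and 20 were lower when only the 4 dCasMINI-VPR libraries were fitted. Listed tissue genes higher in crTet were 3 with library-size scaling and 2 with reverse-strand counts (0 to 7 without each library). Those lower in crTet were 1 with forward-strand counts and 6 with the 4 libraries alone (0 to 6 without each library). Those in sgTet were 0 higher in DESeq2, and 0 to 4 higher and 0 to 2 lower without each library.

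The members' median CPM was 0.349 (forward-strand) and 0.482 (reverse-strand) in sgNT, 1.15 and 0.818 in crTet, and 0.604 (reverse-strand) in crNT. Some uncalled members changed sign in crTet over crNT. GDPD3 was at -0.043 with reverse-strand counts, and F10 at 0.22 with forward-strand counts, 0.013 with reverse-strand counts and 0.000197 with the 4 libraries alone. Leaving out each library gave -0.63 to 0.95 for F10, -0.61 to 0.61 for C4B and -0.70 to 0.60 for B3GALT5. The causes were not tested.

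Replicate numbers are shared by the groups, but same-numbered libraries hardly deviated together (correlations of 0.0282 for sgTet and sgNT and 0.0488 for crTet and crNT). A replicate block gave 682 genes higher and 519 lower in crTet, 89 higher and 78 lower in sgTet, and F10 at 0.041. Under it ENSG00000283828.1 in sgTet and INSM1 in crTet were not called (edgeR adjusted p = 0.0574 and 0.0602). Where 1 library was left in a group it was assumed to vary like the others. Of 18 called results on the genes run through the alternatives, which leave out the genes named for their likeness to the members (GSTP1 among them), 2, both of EGFP, were called under every alternative run, and 16 were lost under at least 1. Depth limits the low members most, since 3 reads equal up to 0.170 CPM.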
